A study of Mus musculus with 8 samples.

Results

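The regions described here are C/EBPα peaks in mouse gene deserts that were called in every library of the study. Peaks of 6 deposited lists were merged where they shared at least 1 bp, which gave 259446 regions, of which 23480 held a peak in all 6 libraries. Of these, 1209 autosomal regions had their midpoint outside every RefSeq protein-coding gene and over 100 kb from the nearest gene end, and they are called members below. The peak calls and the gene table chose the members, so that they were called everywhere is not a result.

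The assay was CUT&RUN, in which an antibody tethers a nuclease to a DNA-bound protein and the released fragments are sequenced. The cells were sorted mouse bone marrow progenitors (Lin- KIThi-int FLT3+), which lack lineage markers and carry the receptors KIT and FLT3. They came from 3 genotypes of an enhancer of Zeb2 that the labels place at -165 kb: WT, and the enhancer variants DC and DE, which the labels do not explain further. The antibody against C/EBPα was used on 2 libraries per genotype, from batches 1 and 2. In pairs of values below, batch 1 comes first. The labels do not say that the batches used separate mice, so p-values measure the spread between these libraries, which may be technical. A control level is not given, as the 2 IgG libraries (WT cells) are not analysed here.

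C/EBPα is a leucine-zipper transcription factor that binds DNA as a dimer and directs progenitors toward granulocytes and monocytes. Most of its sites lie away from promoters, in enhancers that act on genes over long distances. Gene deserts are long stretches without protein-coding genes, and those beside developmental and blood regulators are known to hold such distant enhancers, as beside Myc.

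The label "gene desert" held for protein-coding genes only. A total of 322 members (26.6%) had their midpoint inside an annotated long non-coding RNA (lncRNA) gene, while such genes covered 10.4% of the desert bases. Whether or not in a lncRNA gene, 46 members lay in antigen receptor loci, 35 of them in Igh, 9 in Tcra and 2 in Tcrb, whose gene segments are not classed as protein-coding in the table. "Bound" was also uneven, since 7 members described below stood on a very high local background.

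Sequence was at hand only for annotated promoter windows of 300 bases, 250 before and 50 after a gene start. In 23 members (1.90%) the summit, the position of highest coverage, lay in such a window of a lncRNA gene, against 1.74% of the 7362 regions called in all 6 libraries that lie between genes at 1 to 100 kb from a gene end (near-gene regions below). Of these 23 windows the 6 with the highest mean pileup are shown, because they are desert sequences under a summit. Gm36154 lies in the largest cluster of members and Gm46116 in the cluster beside Uaca, both described below. They are from RefSeq (GRCm38.p6, the mm10 assembly), read 5′ to 3′ along the lncRNA. Capitals mark every match to TTNCNNAA on either strand, a loose form of the C/EBP site that includes the tighter form TTGCNNAA.

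A130077B15Rik, chr10:122569842-122570141, minus strand: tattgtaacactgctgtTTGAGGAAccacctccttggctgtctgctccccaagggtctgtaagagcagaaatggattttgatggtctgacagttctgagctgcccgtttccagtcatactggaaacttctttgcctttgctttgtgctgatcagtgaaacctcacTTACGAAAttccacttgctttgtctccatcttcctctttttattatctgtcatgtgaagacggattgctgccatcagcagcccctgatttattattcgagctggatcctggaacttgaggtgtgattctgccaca

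Gm32990, chr13:110568462-110568761, plus strand: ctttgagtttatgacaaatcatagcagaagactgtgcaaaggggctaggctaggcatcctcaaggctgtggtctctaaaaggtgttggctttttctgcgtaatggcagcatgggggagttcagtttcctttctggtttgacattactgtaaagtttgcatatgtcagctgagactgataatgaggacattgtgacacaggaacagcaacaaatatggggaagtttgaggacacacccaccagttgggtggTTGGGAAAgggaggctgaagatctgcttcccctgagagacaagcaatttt

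Gm34589, chr14:102828159-102828458, minus strand: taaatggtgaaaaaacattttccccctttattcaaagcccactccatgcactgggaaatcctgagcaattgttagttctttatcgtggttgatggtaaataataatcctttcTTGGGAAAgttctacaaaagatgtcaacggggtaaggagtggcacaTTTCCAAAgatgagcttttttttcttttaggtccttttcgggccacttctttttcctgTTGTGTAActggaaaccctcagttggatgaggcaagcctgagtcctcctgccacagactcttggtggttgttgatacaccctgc

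Gm41331, chr15:60141576-60141875, plus strand: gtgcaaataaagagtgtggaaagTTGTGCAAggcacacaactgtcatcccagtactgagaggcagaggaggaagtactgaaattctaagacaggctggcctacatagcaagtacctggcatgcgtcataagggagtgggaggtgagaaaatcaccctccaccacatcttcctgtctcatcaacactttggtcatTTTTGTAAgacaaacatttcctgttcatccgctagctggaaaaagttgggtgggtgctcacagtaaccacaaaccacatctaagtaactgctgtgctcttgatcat

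Gm46116, chr9:61056683-61056982, plus strand: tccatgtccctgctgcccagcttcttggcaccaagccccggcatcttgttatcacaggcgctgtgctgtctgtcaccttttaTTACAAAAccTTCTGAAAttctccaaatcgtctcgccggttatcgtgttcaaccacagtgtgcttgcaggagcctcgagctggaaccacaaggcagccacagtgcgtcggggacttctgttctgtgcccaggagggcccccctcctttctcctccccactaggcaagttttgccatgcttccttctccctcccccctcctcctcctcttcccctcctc

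Gm36154, chr2:128466466-128466765, minus strand: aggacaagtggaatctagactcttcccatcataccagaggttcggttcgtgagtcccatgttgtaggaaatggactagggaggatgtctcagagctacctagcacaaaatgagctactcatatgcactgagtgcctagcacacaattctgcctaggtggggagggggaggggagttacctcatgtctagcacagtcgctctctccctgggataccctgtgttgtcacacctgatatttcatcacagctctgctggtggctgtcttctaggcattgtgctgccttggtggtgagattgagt

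Of the 23 windows, 14 (60.9%) held TTNCNNAA and 6 (26.1%) held TTGCNNAA. Over all 32851 promoter windows of the table the shares were 40.7% and 10.8%. Those windows were not matched to the 23 by gene type or base composition, so no enrichment is read from the difference. The member at Gm41331, 125 kb from 4933412E24Rik, held TTGCNNAA 92 bp from its summit. Its summit pileup, the number of fragments over the summit, was 52 and 43 (WT), 120 and 52 (DC) and 88 and 60 (DE). The window of Gm36154 held no match to either form, and its member had pileups of 41 and 26, 116 and 39, and 35 and 39 in the same order. The tallest of the 6, at A130077B15Rik, 107 kb from Ppm1h, reached 123 and 105, 212 and 78, and 184 and 134. The local background of that member reached 13.3 times the smallest background of a library, the highest of the 6. For Gm41331 it reached 5.28 times and for Gm36154 3.55 times. These pileups are not scaled for library yield. A match is a description of the letters and not a measured site.

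The libraries differed in yield. Deposited peaks per library ranged from 50221 in DC batch 2 to 169943 in DC batch 1, and read totals are not given in the sources used here, so depth is unknown. The median pileup over members was 35 and 28 fragments (WT), 58 and 20 (DC) and 41 and 28 (DE). Pileups were therefore also scaled, by the median over the 23480 regions, and these values are called scaled pileup; a mean of them is the geometric mean over the 6 libraries. Of 7254 member peaks, 39 gave no whole-number pileup within tolerance, 26 of them in DC batch 2, and the nearest value was used. Across the 1209 members, Spearman's rho of pileup between pairs of libraries ranged from 0.71 (WT batch 1 and DC batch 2) to 0.87 (both DE libraries), over regions, which share library and cell source.

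Members were sparse and gathered toward the edges of the deserts. Deserts over 100 kb from any gene end covered 680 Mb and held 1.77 members per Mb, whereas the intergenic sequence within 100 kb held 10.1 constant regions per Mb. Density fell with distance, from 3.72 members per Mb at 100 to 200 kb to 1.65 at 200 to 400 kb, 0.552 at 400 to 800 kb and 0.309 beyond 800 kb. The median distance to the nearest gene end was 172 kb, with quartiles of 128 and 256 kb. Of all desert regions called in any library, 3.07% were called in all 6 and 91.1% in 1 library only, while the corresponding values were 9.22% and 75.7% for near-gene regions. These shares describe the calls that chose the members and carry no test.

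**Figure D1:**
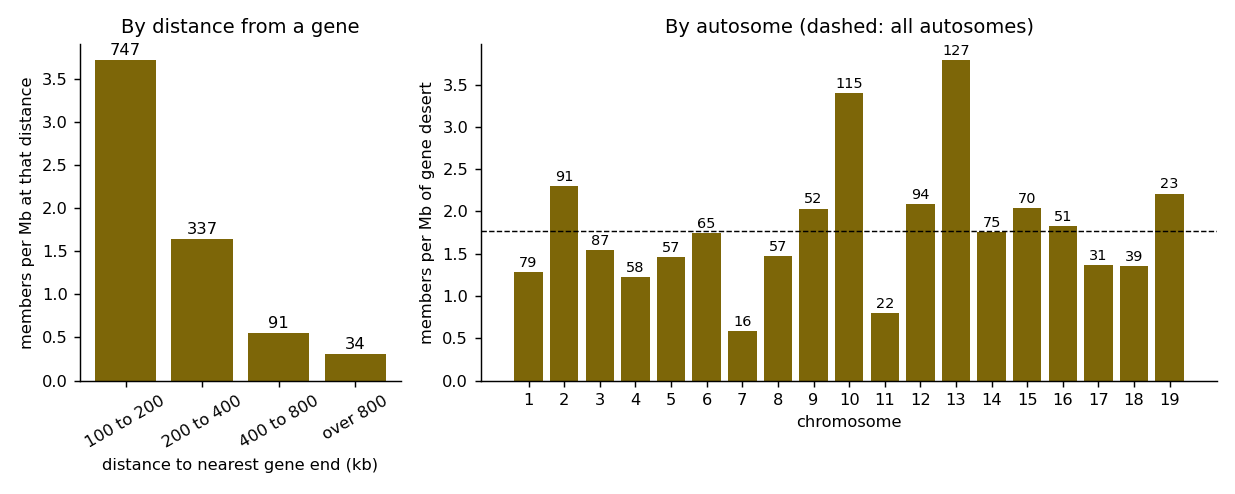
Members per Mb of gene desert, by distance to the nearest gene end in kb (left) and by autosome (right), with the number of members above each bar and all autosomes as the dashed line. Density fell from 3.72 to 0.309 per Mb with distance, and chromosomes 13 and 10 stood highest with 3.79 and 3.40.

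By chromosome, chromosome 13 had 127 members (3.79 per Mb of desert) and chromosome 10 had 115 (3.40 per Mb). Chromosomes 7 and 11 were lowest, with 16 and 22 members (0.582 and 0.795 per Mb). Of 1393 gaps over 200 kb between protein-coding genes, 381 (27.4%) held a member, and 71 held 5 or more. Gaps with a member had a median length of 571 kb, and those without had 389 kb. The members had 470 different nearest genes.

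The farthest member lay 1812 kb from G6pd2, at chr5:59996587-59997114. Its scaled pileup was 155 and 69.4 (WT), 98.8 and 64.4 (DC) and 141 and 82.7 (DE), so batch 1 was the higher in each genotype. A member 1476 kb from Cdc73 (chr1:142127446-142127653) was low, with 30.3 and 21.0, 27.2 and 36.8, and 27.6 and 30.6. Another at 1412 kb from Cntnap5b (chr1:101901865-101902406) had 62.6 and 33.6, 42.6 and 29.1, and 29.3 and 34.0. At the limit of the rule, the 3 members just inside 100 kb, near 1700016C15Rik, 3110040M04Rik and Smim20, lay at 100.2 to 100.3 kb and averaged scaled pileups of 20.4, 22.3 and 35.4. The 3 regions just outside, near L3mbtl4, Thbs1 and Gm525, lay at 99.86 to 99.96 kb and averaged 54.4, 50.7 and 55.6.

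Widths and summit positions were close to those of near-gene regions. The median width of a merged region was 408 bp, against 422 bp near genes. The summits of the 6 libraries spread over a median of 67 bp, against 66 bp, and in 96.4% of members all lay within 250 bp of their median, against 96.1%. These values describe 2 classes that were both selected by calls in all 6 libraries.

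Peak height differed little between deserts and near-gene regions. The deposited fold is the ratio of the summit to its local background, taken here to have a constant (pseudocount) added to both. It is therefore below the plain ratio where the background is low. Its median over members was 12.3 and 11.01 (WT), 21.4 and 12.3 (DC) and 13.1 and 16.3 (DE). Near genes it was 12.1 and 10.9, 22.3 and 12.4, and 13.4 and 16.2. The difference in median log2 fold, desert minus near-gene, was -0.01 ± 0.03 (SD, n = 6 libraries), above 0 in 3 libraries and below 0 in 3. An exact permutation test by sign flips over libraries, two-sided, gave p = 0.4375 (0.4375 after Benjamini-Hochberg adjustment over 4 such tests). The smallest p that 6 libraries allow is 0.03125.

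The median log2 pileup was lower in deserts by 0.09 on average (-0.09 ± 0.07, SD, n = 6; exact permutation p = 0.0625, adjusted 0.125), lower in 5 libraries and equal in WT batch 1. The local background under the members was lower too. Its log2 ratio to the library's smallest background (its floor) differed by -0.20 ± 0.09 (SD, n = 6), lower in 6 of 6 libraries, with an exact permutation p of 0.03125, the smallest possible, and 0.125 after adjustment. None of these differences passed adjustment, which a single test of the 4 could not do even at the smallest possible p. Within batches the background difference averaged -0.15 in batch 1 and -0.24 in batch 2. In WT batch 1 and DC batch 1 the median background of members was the floor itself. No value can lie below the floor, so in these libraries the difference could not be positive.

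High background, at 5 or more times the floor, was found for 4.14% and 11.7% of members (WT), 5.46% and 10.6% (DC) and 4.63% and 11.5% (DE). Near genes the shares were 4.66% and 18.4%, 4.21% and 16.9%, and 4.27% and 17.3%. The batches differed more than the classes: the desert minus near-gene difference averaged 0.364 percentage points in batch 1 and -6.27 in batch 2. Pooled, it was -2.95 ± 3.69 points (SD, n = 6; exact permutation p = 0.1875, adjusted 0.25). The pooled value therefore did not hold within batch 1.

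**Figure D2:**
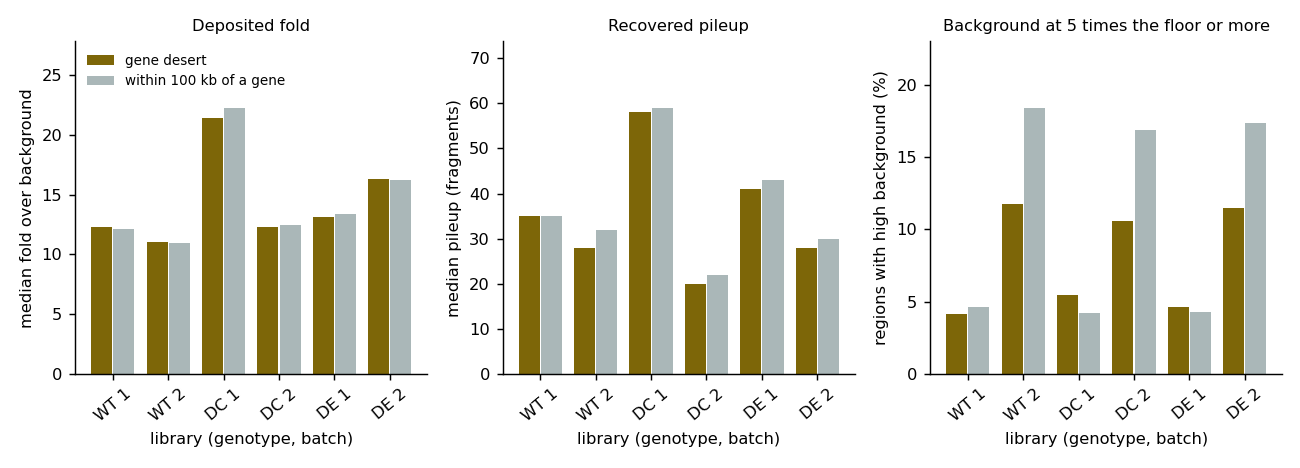
Median deposited fold, median recovered pileup in fragments, and percent of regions with a local background of 5 or more times the floor, for members and near-gene regions in each of the 6 libraries (bars from 0, no error bars because each bar is 1 library). Fold is alike in both classes, and high background is more frequent near genes in the batch 2 libraries (16.9% to 18.4% against 10.6% to 11.7%).

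The members fell into a large body of focal peaks and a handful of very different ones. In 959 members (79.3%; 72.8% near genes) the background was under 5 times the floor in all 6 libraries, and 11 members were above it in all 6. The background was at least 100 times the floor in all 6 libraries in 6 members, and in some libraries only in another, near Pex2.

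The tallest member, 1035 kb from Lrrc4c, a neuronal synapse adhesion gene (chr2:98666763-98667304), had pileups between about 124523 and 555548 fragments. Its background was 202153 to 232729 times the floor, and its deposited fold only 1.54 and 1.53, 1.67 and 1.84, and 1.56 and 1.46. A pair of members near Gm2244 (chr14:19417246-19417354 and chr14:19418762-19418897) had folds of 1.64 to 2.21 and 1.39 to 1.84, and one near Alkbh8 (chr9:3000528-3001010) had 1.52 to 1.94. Members near Esp38 (chr17:39846296-39848243) and Fgf14 (chr14:124801617-124802178) had folds of 2.54 to 27.5 and 1.61 to 3.41, and the one near Pex2 (chr3:5860345-5860736) had 1.77 to 5.31. Thus 5 of these 7 stayed under a fold of 4 in every library. The pileup of the members near Lrrc4c, Gm2244 and Alkbh8 is approximate, because no whole number within tolerance was found in some libraries.

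**Figure D3:**
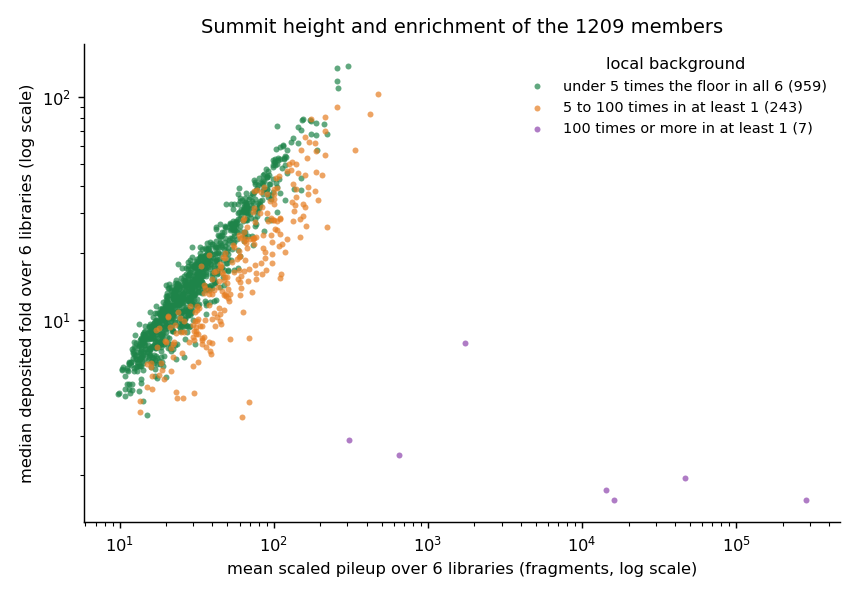
Mean scaled pileup (fragments, log axis) against the median deposited fold over the 6 libraries (log axis) for the 1209 members, coloured by the highest local background in any library. The 959 members on low background form a band in which fold rises with pileup, and 7 members with a background of 100 or more times the floor in at least 1 library lie apart, with high pileup and low fold.

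Next in height came members beside Mef2c and Dusp6, whose background passed 5 times the floor in at least 1 library but stayed under 10 times. The tallest was 429 kb from Mef2c, which encodes a transcription factor of myeloid and lymphoid progenitors (chr13:83074087-83075013). Its scaled pileup was 625 and 354 (WT), 602 and 391 (DC) and 562 and 400 (DE), with deposited folds from 53.3 to 462. The genotypes overlapped and batch 1 was higher in each. A pair of members lay beyond Dusp6, which encodes a phosphatase of ERK kinases. The first, at 193 kb (chr10:99459596-99460437), had 492 and 340, 460 and 371, and 514 and 368, and the second, at 174 kb (chr10:99441009-99441433), had 443 and 256, 400 and 267, and 345 and 335.

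Ranked by their worst fold among the 6 libraries, with background under 5 times the floor in all of them, 10 members led. Of these, 2 lay 221 and 247 kb from Mreg, which encodes melanoregulin, a protein of organelle transport. The nearer (chr1:71938068-71939099) had folds of 164 and 87.5 (WT), 225 and 90.3 (DC) and 125 and 145 (DE). A member 117 kb from Map2k6, a kinase upstream of p38 (chr11:110642302-110642951), had folds of 114 and 111, 220 and 132, and 144 and 151. Its scaled pileup ran from 271 to 343. DE overlapped both other genotypes, and the DC values of 317 and 308 lay above the WT values of 298 and 276, a difference that did not pass (limma with batch, adjusted p = 0.820).

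The other members of that group lay near Trib1 (2), Mef2c, Jun, Jarid2, Katnal1 and Triqk. Trib1 encodes a pseudokinase that promotes C/EBPα degradation, and its member at 127 kb (chr15:59783887-59784808) had scaled pileups of 277 and 217 (WT), 276 and 254 (DC) and 249 and 293 (DE). Jun encodes an AP-1 subunit, and its member at 157 kb (chr4:95209188-95209863) had 221 and 166, 231 and 198, and 280 and 242. Jarid2 encodes a subunit of Polycomb repressive complex PRC2, and its member at 166 kb (chr13:44564705-44565188) had 209 and 185, 189 and 163, and 156 and 230. At Trib1 and Jarid2 the genotypes overlapped. At Jun both DE libraries lay above the other 4, and the DE difference from WT of 0.44 log2 did not pass (limma with batch, adjusted p = 0.346).

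Members gathered in clusters. Runs of at least 4 members with gaps of at most 50 kb numbered 76 and held 489 members (40.4%), and 342 members stood alone. The median of the mean scaled pileups was 35.2 in the clusters and 26.9 among single members. The largest cluster had 17 members over 180 kb between Bcl2l11, which encodes the pro-apoptotic protein BIM, and Spdye4c. In it, 12 members lay in lncRNA genes, among them Morrbid, a lncRNA known to restrain Bcl2l11 in short-lived myeloid cells. The tallest of the 17 was 132 kb from Bcl2l11 (chr2:128294698-128295447), with scaled pileups of 154 and 146 (WT), 188 and 153 (DC) and 143 and 177 (DE). Summed over the cluster, the unscaled pileup was 712 and 689, 1284 and 554, and 890 and 742 fragments.

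The second cluster, of 16 members over 85.8 kb, began 124 kb from Trib1 and had the shortest mean spacing of the 6 largest, 5.72 kb. Its members ran from a mean scaled pileup of 11.1 to 260. The third, of 15 members over 228 kb, began 108 kb from Id2, which encodes an inhibitor of E-protein transcription factors in dendritic and lymphoid cells. Its tallest member (chr12:25388950-25389648) had 109 and 92.5, 100.1 and 95.1, and 149.8 and 125. The next, of 14 members, all in the lncRNA genes 4930412B13Rik and Gm13986, ended 104 kb from Thbs1, which encodes the secreted matrix protein thrombospondin 1. Its tallest (chr2:117996106-117997126) had 141 and 133 (WT), 183 and 196 (DC) and 199 and 211 (DE), with the WT libraries lowest.

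Clusters of 11 members came next, 5 in number, of which those beside Uaca and Map3k1 had the highest mean pileup. In the cluster between Uaca and Tle3 all 11 lay in lncRNA genes, and 5 were on low background in all libraries. Map3k1 encodes a kinase of the JNK pathway, and the tallest member of its cluster (chr13:111935803-111936824) had 236 and 180 (WT), 180 and 133 (DC) and 208 and 200 (DE). The other 3 clusters of this size lay between Jun and Fggy, Serp2 and Lacc1, and Dusp10 and Hlx.

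**Figure D4:**
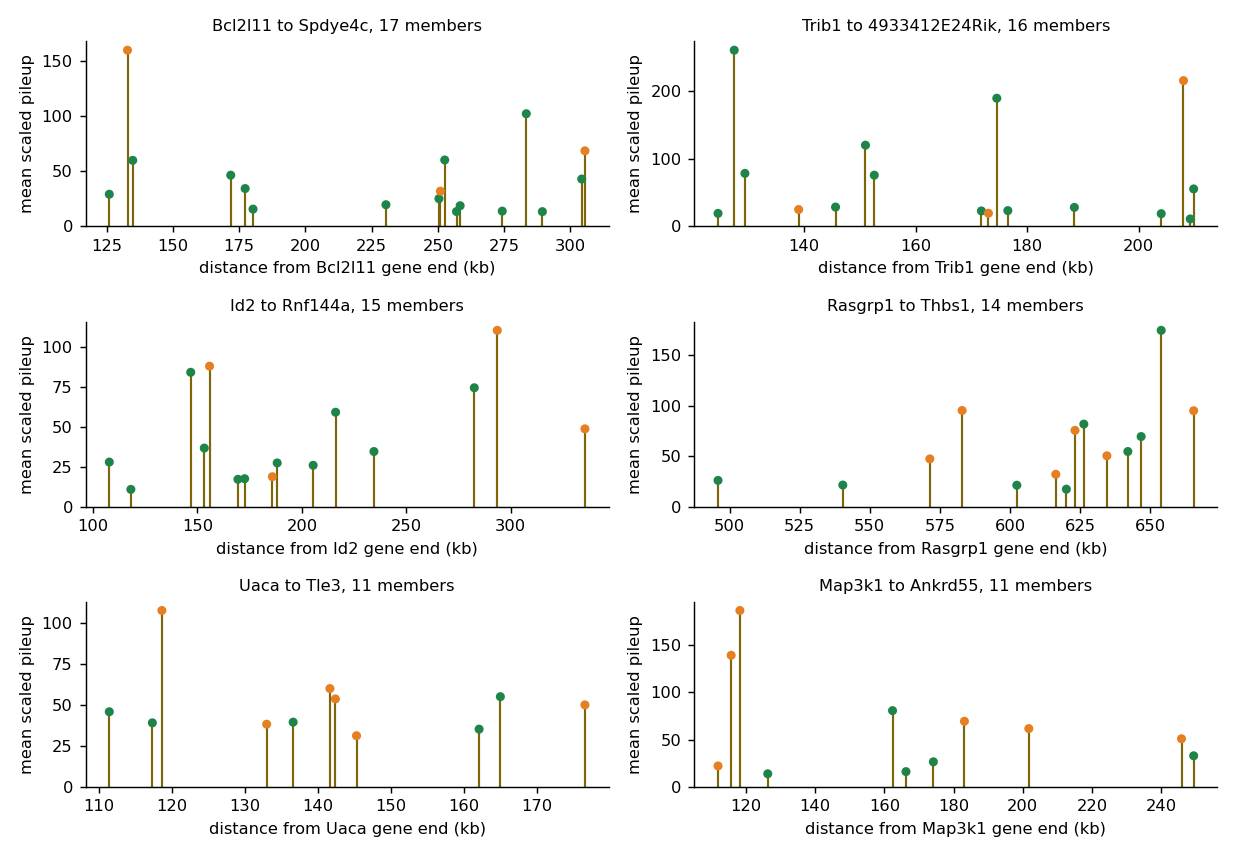
Mean scaled pileup of each member (vertical axis) against its distance from the left-hand gene end in kb, for the 6 largest clusters; green points had a background under 5 times the floor in all 6 libraries and orange points did not. Each cluster mixes a few tall members, up to 260 beside Trib1, with many low ones.

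Deserts beside genes of blood progenitors were examined by list. Of 30 listed progenitor regulators, 14 bordered a gap over 200 kb and 10 of these (71.4%) were the nearest gene of at least 1 member, with 55 members in all. They were Id2 (17 members), Runx1 (8), Myc and Zeb2 (7 each), Mef2c (5), Bcl11a (4), Sox4 (3), Satb1 (2), Tcf4 and Kit (1 each). Of 10 such myeloid genes, 6 had members: Trib1 and Jun (11 each), Klf4 (10), Maf and Tet2 (2 each) and Cebpb (1). Over all autosomal protein-coding genes bordering such a gap, 2374 in number, the share was 19.6%.

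Other lineages and tissues were counted in the same way. Of B and T lymphoid genes 2 of 7 had members, Foxo1 (3) and Gata3 (2). Among neural adhesion and synaptic genes 10 of 44 (22.7%) had members, and among developmental transcription factors 14 of 64 (21.9%). The lists were chosen with earlier results known and are described by these counts, without a test. No test of height was made by list. The median of the mean log2 scaled pileup was 5.05 for progenitor regulators, 5.03 for myeloid genes, 5.17 for lymphoid, 4.98 for neural and 4.96 for developmental genes, against 4.97 over all members.

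Myc, which encodes a growth regulator with distant blood enhancers, had 7 members nearest to it, 2 in the desert toward A1bg and 5 in that toward Gsdmc. The latter desert held 13 members, of which 8 were nearest to Gsdmc. Of these 8, 6 form a cluster between 63603135 and 63658550 on chromosome 15, 118 to 173 kb from Gsdmc. The member nearest Myc, at 124 kb (chr15:61860642-61861104), had scaled pileups of 33.3 and 24.2 (WT), 55.0 and 73.6 (DC) and 77.0 and 64.6 (DE). Both WT libraries were below the other 4. Within Pvt1, a lncRNA gene beside Myc, a member at 188 kb (chr15:62177697-62178286) had 43.4 and 29.4, 85.2 and 81.3, and 97.1 and 73.6, again with WT lowest. The tallest in the desert between Myc and Gsdmc lay 128 kb from Gsdmc (chr15:63648017-63648769) and averaged 69.2, on a background of 4.2 to 16.1 times the floor.

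Zeb2, which encodes a zinc-finger transcription factor that acts in myeloid and dendritic cell development and whose enhancer the study varied, had 7 members. A pair lay at distances close to that of the enhancer, 145 and 159 kb from the gene end, and whether either is part of it is not given in the labels. The nearer (chr2:45261918-45262496) had scaled pileups of 196 and 132 (WT), 145 and 116 (DC) and 223 and 174 (DE). The farther (chr2:45276685-45277185) had 97.9 and 72.5, 58.1 and 41.4, and 88.7 and 101.9, so both DC libraries were the lowest. Its DC minus WT difference was -0.78 ± 0.27 log2 (SE, 2 libraries a group), with an adjusted p of 0.608 by limma without batch and 0.0746 with batch, and scaling by the floor moved it to 0.08. Another 4 members lay 1243 to 1256 kb away. The tallest of them (chr2:46370762-46371578) had 216 and 160, 261 and 207, and 254 and 211.

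Genotypes were compared by scaled log2 pileup over all 23480 regions with limma and Benjamini-Hochberg adjustment at 0.05. All of these were called in all 6 libraries, so regions without a call in some genotype are not among them. The counts therefore do not describe binding lost or gained outright. Without batch as a term, 0 members and 0 of all regions (0%) passed for DC against WT, DE against WT or DC against DE. At an unadjusted p under 0.05 there were 110, 84 and 37 members, or 9.098%, 6.95% and 3.06%, against 7.97%, 4.88% and 2.36% of all regions. With batch as a term, which the labels give, 48 members rose in DC against WT (3.97%; 3.15% of all regions) and 16 fell (1.32%; 1.15%). In DE against WT 27 rose (2.23%; 1.12%) and 3 fell (0.248%; 0.268%). In DC against DE 0 members passed in either direction (0.00852% and 0.0213% of all regions), and 116 had an unadjusted p under 0.05 (9.59%; 8.16% of all regions).

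DC against WT and DE against WT share the WT libraries, so a low or high WT value enters both. The values of each are given side by side below. In material from many cells, fewer bound cells and less binding per cell cannot be told apart. The counts fell when any WT library or any library of the variant was left out, as given further below. Such a fit rests on fewer libraries and leaves 1 in a genotype, so the fall does not single out a library. The lone library left was then assumed to vary like the others. How many of all regions kept a call in such fits is not given here. The members that kept theirs are therefore not set against all regions. In every leave-one-out fit 7 members stayed higher in DC, 4 stayed higher in DE, and 0 of the members that fell kept their call. Scaling by the floor in place of the median, with batch, put the median difference from WT over all regions at 0.84 log2 in DC and 0.55 in DE, where median scaling had -0.02 and -0.00. On that scale 37 of the 48 members that rose in DC passed again, 1 of the 27 in DE did, and 0 of those that fell did. Floor scaling adds the same amount to the DC minus WT difference of every region, and likewise for DE. It thus enlarges rises and shrinks falls by construction. It also set the library medians at -0.78 and -0.22 log2 from their mean in WT and -0.68 and 0.84 in DE, and the spread was wider. For the member 156 kb from Id2 the SE was 0.25 with median scaling and 0.64 with floor scaling, both with batch. A call kept or lost on the floor scale is therefore not separate support. The share of all regions that kept a call on it is not given here.

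**Figure D5:**
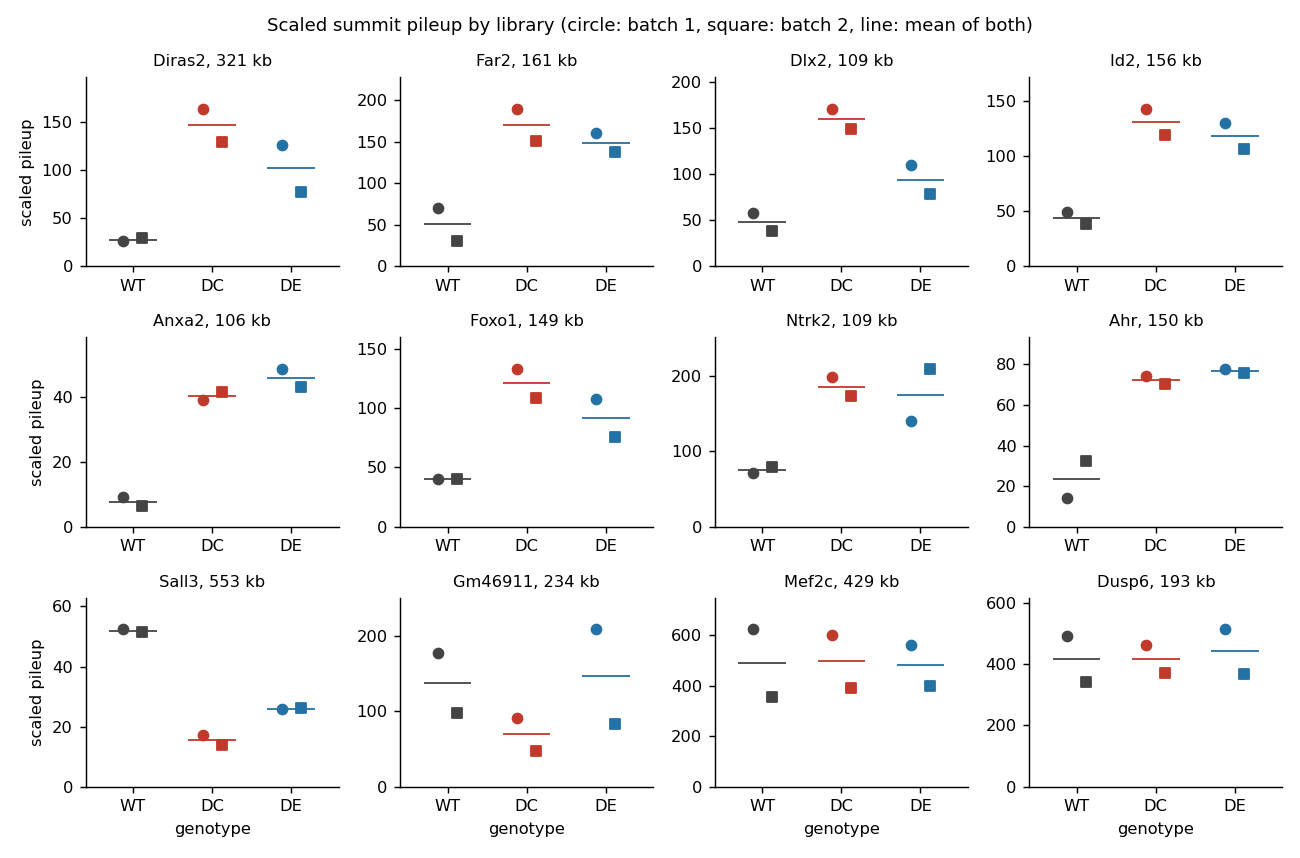
Scaled summit pileup (linear axis from 0) by genotype for 12 members, titled by nearest gene and distance, with batch 1 as circles, batch 2 as squares and the mean of both as a line. The upper 8 rose in DC against WT in the fit with batch, Sall3 and Gm46911 fell, and Mef2c and Dusp6 are tall members that did not pass.

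The change with the smallest p among members was 321 kb from Diras2, which encodes a small GTPase (chr13:52183388-52184131). Its scaled pileup was 26.2 and 29.4 (WT), 164 and 129 (DC) and 126 and 77.0 (DE). Both WT libraries lay below all others. DC exceeded WT by 2.39 ± 0.27 log2 (SE; limma with batch, adjusted p = 2.33e-10) and DE by 1.83 ± 0.27 (adjusted p = 1.88e-06), and without batch the adjusted p were 0.0936 and 0.447. On the floor scale DC kept its call (adjusted p = 4.38e-04) and DE did not (0.136).

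A member 161 kb from Far2, a fatty acyl-CoA reductase gene (chr6:147885778-147886337), had 70.6 and 30.5 (WT), 190 and 150.3 (DC) and 161 and 137 (DE). It rose by 1.86 ± 0.24 in DC (limma with batch, adjusted p = 4.97e-08) and by 1.68 ± 0.24 in DE (adjusted p = 1.88e-06). The genotypes WT and DC did not overlap, nor did WT and DE. A low member 106 kb from Anxa2, which encodes a membrane-binding annexin (chr9:69597440-69597909), had 9.08 and 6.31 (WT), 38.9 and 41.4 (DC) and 48.5 and 43.0 (DE). Its rise was 2.41 ± 0.38 in DC (limma with batch, adjusted p = 4.57e-06) and 2.59 ± 0.38 in DE (1.88e-06). It was the only member whose DE call also held on the floor scale (limma with batch, adjusted p = 1.50e-03). With only peaks of −log10 q of at least 2 it had no fit, so its calls were not checked at that setting.

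Of the 15 members of the cluster beside Id2, 3 rose in DC and 2 of these also in DE. Over all members 3.97% rose in DC and 2.23% in DE, and nothing particular to the cluster is read from its count. The one at 156 kb (chr12:25251165-25252089) had 49.4 and 38.9 (WT), 143 and 120 (DC) and 130.5 and 107 (DE). Its differences were 1.58 ± 0.25 (limma with batch, adjusted p = 4.57e-06) and 1.43 ± 0.25 (adjusted p = 1.12e-04), and it passed in every leave-one-out fit for both. The one at 216 kb (chr12:25311707-25312151) had 44.4 and 21.0, 115 and 70.5, and 91.2 and 61.2. The one at 169 kb (chr12:25265016-25265376) was low, with 8.07 and 11.6 in WT and 24.7 and 33.7 in DC, and lost its call without WT batch 2 or either DC library. The median DC minus WT difference over the 15 was -0.02 log2. The background under the one at 156 kb reached 9.43 times the floor in 1 library, and its part in the change was not tested.

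Foxo1 encodes a transcription factor of lymphoid and myeloid progenitors, and 2 of its 3 members rose in DC. With 3 members, this count is too small to set against the 3.97% of all members. The taller, at 149 kb (chr3:52498844-52499455), had 40.4 and 39.9 (WT), 133 and 109 (DC) and 108 and 75.9 (DE), a rise of 1.59 ± 0.26 in DC (limma with batch, adjusted p = 1.13e-05). A member 109 kb from Dlx2, a homeobox gene (chr2:71655145-71656149), had 57.5 and 38.9, 171 and 149, and 109.6 and 78.2. It rose by 1.75 ± 0.25 in DC (adjusted p = 3.45e-07), and its DE difference of 0.97 ± 0.25 (0.0212) was lost in every leave-one-out fit. Members 109 kb from Ntrk2, the receptor of a neurotrophin, and 150 kb from Ahr, a ligand-activated transcription factor, completed the 8 smallest p-values in DC. The Ahr member (chr12:35685131-35685733) had 14.1 and 32.6 (WT), 74.1 and 70.5 (DC) and 77.8 and 75.9 (DE), and lost its call without WT batch 1 or DC batch 1.

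The members near Myc described above also passed with batch. The one at 124 kb rose by 1.16 ± 0.30 in DC (limma, adjusted p = 9.86e-03) and 1.31 ± 0.30 in DE (6.01e-03), and the one in Pvt1 by 1.22 ± 0.28 (2.31e-03) and 1.24 ± 0.28 (4.30e-03). Each lost these calls without WT batch 2 and without at least 1 library of the variant. Of the members in the Trib1 cluster 1 rose in DC (chr15:59785977-59786556), from 45.4 and 54.6 in WT to 97.6 and 146 in DC, with 57.7 and 113 in DE. Of the progenitor list 5 of 55 members rose in DC and 4 in DE, of the myeloid list 1 of 37 rose and 1 fell in DC, of the lymphoid list 2 of 5 rose in DC and 1 in DE, and of the neural list 1 of 11 rose in DC. None of the developmental list's 27 members rose and 1 fell, beside Sall3. Over all members 3.97% rose and 1.32% fell in DC and 2.23% rose in DE, and nothing particular to a list is read from these counts.

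That member, 553 kb from Sall3, a zinc-finger gene (chr18:81539465-81539806), had the smallest p among those that fell in DC. Its scaled pileup was 52.5 and 51.5 (WT), 17.3 and 13.8 (DC) and 25.9 and 26.1 (DE), with both WT libraries highest. The DC difference was -1.75 ± 0.36 (limma with batch, adjusted p = 7.67e-04) and the DE difference -1.0 ± 0.36 (0.178), and on the floor scale DC was -0.89 with an adjusted p of 0.317. A member 171 kb from Tnks, which encodes tankyrase (chr8:35136646-35136953), had 28.3 and 33.6 (WT), 11.7 and 9.20 (DC) and 34.3 and 32.8 (DE). It fell by 1.57 on the log2 scale in DC (SE 0.39, adjusted p = 6.68e-03). Its DC minus DE difference of -1.69 ± 0.39 had the smallest adjusted p of any member in that comparison, 0.0738.

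A member 234 kb from Gm46911 (chr5:42977010-42977606) had 178 and 97.7 (WT), 91.4 and 47.5 (DC) and 209 and 83.8 (DE), a DC difference of -1.0 ± 0.24 (limma with batch, adjusted p = 4.65e-03). WT and DC did not overlap, though 97.7 and 91.4 lay close. Of the 11 members nearest Jun 1 fell in DC (chr4:95230318-95231186), with 83.8 and 85.1 (WT), 43.9 and 39.9 (DC) and 74.5 and 53.2 (DE). The tall Fgf14 member on high background (chr14:124801617-124802178) was called as fallen in both comparisons with batch. It had 1066 and 854 (WT), 564 and 486 (DC) and 938 and 331 (DE), so WT and DE overlapped. Its DE difference of -0.78 log2 was -0.16 without DE batch 2 and -1.40 without DE batch 1. On the floor scale its DC difference was -0.01. A background of 5 or more times the floor in at least 1 library was found for 5 of the 16 members that fell in DC and 3 of 3 in DE, for 5 of 48 and 7 of 27 that rose, and for 250 of all 1209. The part of background in these calls was not tested.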

How the data were processed

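Anti-C/EBPα CUT&RUN peaks of 6 libraries (3 genotypes, 2 batches) were used. Trimmomatic, Bowtie2, SAMtools, MACS2 2.2.9.1, HOMER and mm10 are named in the submitters' processing notes; their settings, and whether IgG served as control in peak calling, are not given in the sources used here. Peaks were called per library. In the deposited lists each peak has a score (10 times −log10 q), a ratio of summit to local background (fold), −log10 p and −log10 q values, and a summit offset, a whole number of bases. Fold was assumed to have a pseudocount of 1.00 added to summit and background, and the recovered pileups rest on this. No deposited peak had −log10 q under 1.00.

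The deposited fold and −log10 p together give the pileup at the summit and the local background, solved for a whole number of fragments within a tolerance of 5%. They are not read counts, so no count test was used. Log2 pileups were centred on each library's median over the 23480 regions called in all 6 libraries. Genotypes were compared with limma 3.58.1 (R 4.3.3, trend, Benjamini-Hochberg over all 23480), first without batch and then with the labelled batch as a block. Same-batch libraries deviated together over all regions (r = 0.55 for WT and DC, 0.41 for WT and DE, 0.38 for DC and DE). Over the 1209 members r was lower, at 0.34, 0.24 and 0.25 in the same order. The labels give the batch, so the pairing was kept. On simulated data for DC against WT with batch over 23480 regions, 81% of 4-fold and 18% of 2-fold changes were recovered, with 3 false among 102 calls. The simulated spread between libraries was capped, and the changed DC values had counting noise only. These rates may therefore be too favourable for the real libraries. Classes were compared over libraries by exact sign-flip permutation (Python 3.11.15, numpy 2.4.6).

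The gene table was RefSeq for GRCm38.p6 with 21883 protein-coding genes. The members and gene lists were chosen with earlier results of these data known. Named members were the 10 tallest, the 10 with the best worst fold on low background, up to 8 per comparison and direction past the threshold, the 5 farthest, 3 on each side of 100 kb, up to 4 per gene list, those beside Zeb2 and Myc within 3 Mb, and the 6 largest clusters. Alternatives were a 200 kb distance, −log10 q of at least 2, summits within 250 bp, scaling by the floor, a background limit of 10 times the floor, low-background members, and leaving out each library. Members outside antigen receptor loci, and the blocked fits of that set and of low-background members, were added after seeing the data. The result of 1 gene list is not reported here.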

Additional observations from a re-analysis of the deposited data

How the results depend on the processing

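With a distance over 200 kb there were 462 members, and 1218 to 1358 when each library was left out. At 200 kb the log2 fold difference between deserts and near-gene regions reversed, from -0.01 to 0.000195, and the log2 pileup difference was -0.15 with an exact permutation p of 0.03125, the smallest possible. Leaving out each library kept the background difference between -0.21 and -0.16, where 5 libraries allow no p under 0.0625. Without the replicate block limma called 0 members in every comparison. With the replicate block it called 64 for DC against WT and 30 for DE against WT. With the block, the calls for these comparisons were 48 and 1 under floor scaling, 62 and 32 with −log10 q of at least 2, 54 and 20 among low-background members, and 63 and 30 outside antigen receptor loci. Leaving out WT batch 1, WT batch 2, DC batch 1, DC batch 2, DE batch 1 and DE batch 2 in turn, with the block, gave 44, 21, 19, 13, 74 and 78 calls for DC against WT. In that order DE against WT had 27, 10, 21, 21, 20 and 9, and DC against DE had 4, 4, 0, 0, 1 and 3, against 0 in each fit run on all libraries. The cause of these changes was not tested. Depth is unknown, and 2 libraries per genotype, with pileups near 20 to 58 fragments, limit what could be called.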

Other observations

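Other deserts, chosen after their values were seen, also held tall members. The tallest of the 8 members nearest Runx1, a regulator of blood stem cells, was on chromosome 16 (chr16:93028305-93029198), with unscaled pileups of 121 and 103 fragments (WT), 205 and 64 (DC) and 148 and 108 (DE). The tallest of 10 nearest Klf4, a monocyte transcription factor gene (chr4:55815827-55816274) had 208 and 95, 247 and 65, and 159 and 116. Cited2, which encodes a transcriptional coregulator, was nearest to 19 members, of which the tallest (chr10:16996617-16997322) had 227 and 97, 369 and 63, and 225 and 104. In these members batch 1 was the higher in each genotype, before scaling for library yield.

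The antigen receptor locus Igh held 35 members, nearest in the gene table mostly to Zfp386. The tallest (chr12:115158131-115158611) had unscaled pileups of 268 and 100 (WT), 348 and 69 (DC) and 223 and 102 (DE). The median of the mean log2 scaled pileup over the 35 was 4.94, against 4.97 over all members, and 6 of them had a background of 5 or more times the floor in at least 1 library.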
